A study of Mus musculus with 8 samples.

Results

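The genes described here are the 5 cyclin-dependent kinase (CDK) inhibitors of the INK4 and KIP families other than p21 and p57: Cdkn1b (p27KIP1), Cdkn2a (p16INK4a and p19ARF), Cdkn2b (p15INK4b), Cdkn2c (p18INK4c) and Cdkn2d (p19INK4d). They were listed by name and not picked by a measured value, though earlier results of these data were known at the time. All 5 were found by Entrez ID among the 27179 genes of the count table. All 5 also passed the filter on low counts that left 17700 genes for testing.

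INK4 proteins bind CDK4 and CDK6 and keep them from pairing with D-type cyclins, whereas the KIP protein p27 binds assembled cyclin E-CDK2 and cyclin A-CDK2 complexes. Both brakes keep the retinoblastoma family active and so hold E2F target genes in check at the entry into S phase. In the bone marrow, large pre-B cells divide under the pre-B cell receptor and the interleukin-7 receptor, and they leave the cycle as small pre-B cells before light chain recombination. p27 is best known for holding cells in quiescence and is destroyed by the SCF-SKP2 ubiquitin ligase in cycling cells. p18 and p19INK4d are the INK4 proteins usually present in cycling hematopoietic cells, and the Cdkn2a-Cdkn2b locus is kept silent by Polycomb complexes in most young cells.

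RNA was sequenced from early large pre-B (early LPre-B) and small pre-B (sPre-B) cells sorted from mouse bone marrow, with 2 libraries in each of 4 groups. Control (Ctrl) mice were Upf1 Flox/Flox, Mb1 +/+ and Igh B1-8hi/+, and conditional knockout (cKO) mice were Upf1 Flox/Flox, Mb1 Cre/+ and Igh B1-8hi/+. All 8 libraries therefore shared the floxed Upf1 alleles and a knock-in of an already rearranged heavy chain, and the 2 genotypes differed by the Cre knocked into Mb1 (Cd79a), which acts from the earliest B lineage stages. Mice of both sexes were used at 8 to 16 weeks of age, and loxP sites flanked exons 4 to 6 of Upf1, which encodes the RNA helicase of nonsense-mediated mRNA decay (NMD). The age of single animals, and whether any were pooled, is not given in the sources used here, so the P values below measure the spread between libraries only.

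The libraries held 68516857 to 160426338 gene counts each. Levels are given as counts per 1000000 (CPM) scaled by trimmed mean of M values (TMM), on which 3 counts correspond to 0.0217 to 0.0426 CPM, depending on the library. The Upf1 gene stood at 237 and 213 CPM in Ctrl early LPre-B, 245 and 258 CPM in cKO early LPre-B, 186 and 198 CPM in Ctrl sPre-B and 282 and 293 CPM in cKO sPre-B cells. Upf1 was thus not lower in the libraries labelled cKO. It was called higher in cKO sPre-B cells (log2 fold change 0.585 ± 0.098, SE, adjusted P = 0.00245) and missed the threshold in cKO early LPre-B cells (0.16 ± 0.10, SE, adjusted P = 0.251). These totals cover all exons and not the deleted ones alone, so they do not check the deletion. Cd79a, whose coding sequence the Cre knock-in disrupts on 1 allele, had means of 592 and 174 CPM in Ctrl and cKO early LPre-B and 1540 and 365 CPM in Ctrl and cKO sPre-B cells, lower in the libraries labelled cKO at both stages. Large pre-B markers summed to 3281 to 5332 CPM in the early LPre-B libraries and 372.5 to 772.7 CPM in the sPre-B libraries, and small pre-B markers to 402.1 to 689.9 and 3364 to 4937 CPM, so the stages followed their labels. Myeloid markers, of which 7 of 7 were detected in each library, summed to 110.7 to 134.1 CPM in Ctrl and 50.05 to 55.59 CPM in cKO early LPre-B cells, and to 304 to 355.2 CPM in Ctrl and 210.5 to 242.8 CPM in cKO sPre-B cells. Most of that sum was Itgam, with means of 92.2 and 35.8 CPM in Ctrl and cKO early LPre-B and 245 and 178 CPM in Ctrl and cKO sPre-B cells. Itgam encodes CD11b, and an antibody to CD11b was part of the lineage stain by which positive cells were left out of the sort. The myeloid sum moved between groups in the same order as Cdkn1b, and its part in the result was not tested. T and NK cell markers summed to 4.319 to 5.165 CPM in Ctrl and 1.863 to 2.315 CPM in cKO early LPre-B cells, and to 1.418 to 1.895 CPM in the sPre-B libraries. Erythroid markers summed to 14.16 to 19.19 and 8.828 to 12.03 CPM in Ctrl and cKO early LPre-B cells and to 22.13 to 26.71 and 12.02 to 17.88 CPM in Ctrl and cKO sPre-B cells. Markers of mature B and plasma cells summed to 182.4 to 196.2 and 169.5 to 169.7 CPM in the early cells of Ctrl and cKO mice and to 317.4 to 330.3 and 395.8 to 453.8 CPM in their sPre-B cells. Of these 6 markers 3 were higher and 1 lower in cKO than in Ctrl sPre-B cells. Fcer2a, which encodes CD23, was at 83.8 and 29.9 CPM against 6.03 and 5.33 CPM (log2 fold change 3.32 ± 0.44, SE, adjusted P = 0.000735). Cr2, which encodes CD21, was higher too (1.215 ± 0.194, SE, adjusted P = 0.00189). Ighd was higher (0.63 ± 0.16, SE, adjusted P = 0.0142) and Sdc1, which encodes CD138, lower (−0.96 ± 0.24, SE, adjusted P = 0.0138), and both calls were lost without cKO sPre-B replicate 1 (adjusted P = 0.0685 and 0.0770) and without Ctrl sPre-B replicate 1 (adjusted P = 0.0913 and 0.0714). The part of these markers in the results was not tested. The Ctrl replicate 2 libraries of both stages held Y-linked counts of 19733 and 28205 with Xist counts of 304 and 151, whereas the other 6 libraries held at most 34 Y-linked and at least 290740 Xist counts. Values without that pair of libraries are given below. Bulk RNA cannot tell fewer cells of a kind from less RNA per cell.

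On the mouse GRCm38 (mm10) assembly, Cdkn1b lies on chromosome 6 at 134920401 to 134925525 on the plus strand. Cdkn2a (89274473 to 89294619) and Cdkn2b (89306289 to 89311032) are neighbours on the minus strand of chromosome 4, the chromosome that also holds Cdkn2c (109660876 to 109666756, minus strand). Cdkn2d lies on chromosome 9 at 21288459 to 21291421 on the minus strand. The span of Cdkn2b lies within that of the noncoding gene Gm12610 (89295180 to 89518621), which was not analysed here. No exon of another annotated gene overlapped an exon of any of the 5. Whether the counting used strand is not given in the sources used here, so the Cdkn2b counts may include reads from unspliced Gm12610 RNA over the same exons. Cdkn2a encodes p16INK4a and, in another reading frame from another first exon, p19ARF, which acts on p53 through MDM2 and not on CDKs. The gene count merges both transcripts.

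Because the control sPre-B cells held more Cdkn1b and less Cdkn2c than the early LPre-B cells, the 250 bases before the start of each are shown, from RefSeq (GRCm38.p6) and written 5′ to 3′ on the strand of the gene. They are Cdkn1b at chr6:134920151-134920400 (plus strand) and the upstream start of Cdkn2c at chr4:109666757-109667006 (minus strand).
Cdkn1b: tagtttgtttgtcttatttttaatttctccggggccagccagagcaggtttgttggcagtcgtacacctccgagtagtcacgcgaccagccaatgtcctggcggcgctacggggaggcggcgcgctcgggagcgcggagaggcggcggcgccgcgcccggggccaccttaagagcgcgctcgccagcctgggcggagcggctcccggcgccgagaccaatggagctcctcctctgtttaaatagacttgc
Cdkn2c: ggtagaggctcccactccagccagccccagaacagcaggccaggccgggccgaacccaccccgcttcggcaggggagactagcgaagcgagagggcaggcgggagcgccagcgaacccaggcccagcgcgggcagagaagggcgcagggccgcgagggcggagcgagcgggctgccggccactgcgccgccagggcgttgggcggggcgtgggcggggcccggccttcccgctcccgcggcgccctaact
Neither run holds a letter in capitals, since none of the motifs searched fell inside it. The search covered windows from 250 bases before to 50 bases after each start and took both strands of GTAAACA (FOXO), TTTGGCGC or TTTCGCGC (E2F) and CACGTG (E-box), which do not overlap one another. The 7 windows of the 5 genes held no match to the FOXO letters or to either E2F sequence searched. Other E2F sequences were not searched. The single E-box began 35 bases after the downstream start of Cdkn2c. Among all 32851 windows, 3.65% held the FOXO letters, 0.813% the E2F letters and 7.15% the E-box. The windows were mostly richer in G and C than the median window (52.7%). They reached 77.0% at the upstream Cdkn2a start, 73.3% at the upstream Cdkn2c start, 66.3% for Cdkn2d and 62.0% for Cdkn1b, and the downstream Cdkn2c start was the exception at 44.0%.

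To ask how the inhibitors differ between the dividing and the resting stage in control mice, Ctrl sPre-B cells were compared with Ctrl early LPre-B cells. p27 and the INK4 genes went opposite ways: Cdkn1b was higher in sPre-B cells, and Cdkn2a, Cdkn2b, Cdkn2c and Cdkn2d were all lower. Of the 5 genes, 1 was called higher and 4 lower past the adjusted P threshold of 0.05 in the edgeR quasi-likelihood test, beside 29.1% of all tested genes called higher and 31.1% called lower. The 5 log2 fold changes had a median of −1.61, against 0.02 over all genes.

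**Figure D1:**
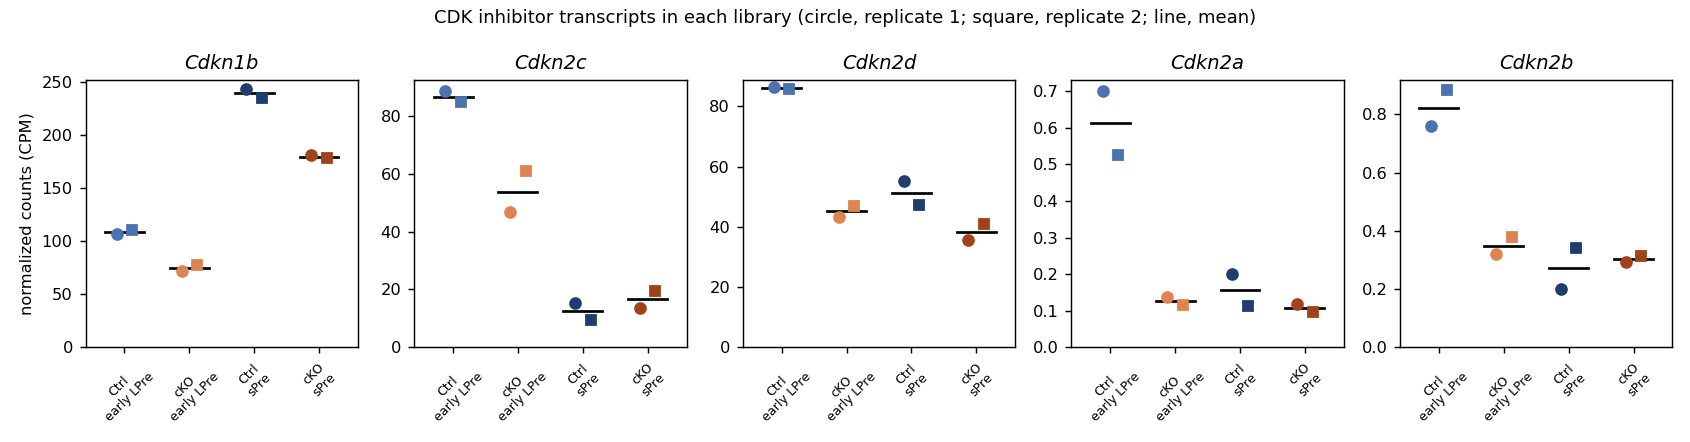
Level of the 5 CDK inhibitor genes in each library, in CPM on a linear axis from 0 (circles, replicate 1; squares, replicate 2; black lines, group means of 2 libraries). Cdkn1b reaches 235 to 243 CPM in Ctrl sPre-B cells, whereas the INK4 genes peak in Ctrl early LPre-B cells, and axes differ between panels.

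Cdkn1b, the only KIP gene of the 5, stood at 107 and 111 CPM in early LPre-B and at 243 and 235 CPM in Ctrl sPre-B cells. Both sPre-B libraries lay above both early LPre-B libraries. The log2 fold change was 1.14 ± 0.09 (SE, adjusted P = 9.04e-06), which is 2.20-fold. In size it exceeded 69.1% of all tested genes.

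Cdkn2c, whose p18 protein acts mainly on CDK6, had the widest fold range of the 5 between the Ctrl stages. It was counted at 88.6 and 84.7 CPM in early LPre-B and at 15.5 and 9.42 CPM in Ctrl sPre-B cells. The sPre-B level was 6.96-fold lower (log2 fold change −2.80 ± 0.26, SE, adjusted P = 2.93e-05), and 92.5% of all genes changed less. The spread between the 2 sPre-B libraries was wide for this gene, yet far smaller than the gap between stages.

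Cdkn2d, which encodes p19INK4d, was counted at 86.3 and 85.8 CPM in early LPre-B and at 55.2 and 47.3 CPM in Ctrl sPre-B cells. It fell by less than Cdkn2c (log2 fold change −0.75 ± 0.11, SE, adjusted P = 0.000362), and its change was near the middle of all genes in size (51.9% changed less).

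Cdkn2a and Cdkn2b were rare throughout. Cdkn2a gave 97 and 41 counts in early LPre-B and 17 and 8 counts in Ctrl sPre-B cells, or 0.702 and 0.526 CPM against 0.201 and 0.114 CPM. Cdkn2b, the p15 gene, gave 105 and 69 counts in the early and 17 and 24 counts in the small cells, or 0.760 and 0.884 CPM against 0.201 and 0.340 CPM. The groups did not overlap for either gene, and both fell (log2 fold change −1.95 ± 0.47 and −1.61 ± 0.39, SE, adjusted P = 0.00671 and 0.00705). Neither call withstood the loss of every library. The Cdkn2a difference had an adjusted P of 0.0536 without Ctrl early LPre-B replicate 1 (log2 fold change −1.67), and 0.0622 without Ctrl sPre-B replicate 2 (−1.55). The Cdkn2b difference had an adjusted P of 0.0686 without Ctrl sPre-B replicate 1 (−1.20).

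The same transition was then read in the cKO mice. Cdkn1b was again higher in sPre-B cells and Cdkn2c again lower, while the other 3 genes did not pass the test. The counts, 1 higher and 1 lower of 5, stood beside 31.6% of all genes called higher and 31.1% called lower, and the median log2 fold change of the 5 was −0.24 against 0.05 over all genes. Cdkn1b was at 72.1 and 77.2 CPM in cKO early LPre-B cells and at 181 and 178 CPM in cKO sPre-B cells, a gap many times the spread within groups. Its log2 fold change was 1.27 ± 0.09 (SE, adjusted P = 5.58e-06). Cdkn2c was at 46.8 and 60.8 CPM in early LPre-B cells and at 13.5 and 19.6 CPM in sPre-B cells, without overlap (log2 fold change −1.70 ± 0.25, SE, adjusted P = 0.000398).

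Cdkn2d was at 43.4 and 47.0 CPM in cKO early LPre-B cells and at 35.7 and 40.9 CPM in cKO sPre-B cells. The ranges did not overlap, yet the difference missed the threshold (log2 fold change −0.24 ± 0.11, SE, adjusted P = 0.0812). It passed when the 4 cKO libraries were fitted alone (−0.28, adjusted P = 0.0385) and with the replicate number as a block within each genotype (−0.24, adjusted P = 0.0304). Cdkn2a, at 0.138 and 0.116 CPM against 0.119 and 0.0959 CPM, and Cdkn2b, at 0.322 and 0.377 CPM against 0.293 and 0.312 CPM, gave log2 fold changes of −0.24 ± 0.50 and −0.21 ± 0.39 (SE, adjusted P = 0.700 and 0.660). At 11 to 49 counts a library, these intervals still admit sizeable changes of either sign.

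To ask what the cKO genotype changed in the dividing cells, cKO early LPre-B cells were set against Ctrl early LPre-B cells. All 5 inhibitors had a lower mean in the cKO cells and the libraries of the 2 genotypes did not overlap for any of them, beside 36.4% of all tested genes that were lower in cKO without overlap. Of the 5, 4 passed the test as lower and 0 as higher, beside 16.9% of all genes called lower and 14.5% called higher, and their median log2 fold change was −0.93 against −0.06 over all genes. Cdkn2d was lower at 43.4 and 47.0 CPM in cKO against 86.3 and 85.8 CPM in Ctrl cells, which is a 1.90-fold difference (log2 fold change −0.93 ± 0.11, SE, adjusted P = 0.000458). Cdkn1b was lower by 31.3%, from 107 and 111 CPM to 72.1 and 77.2 CPM (log2 fold change −0.54 ± 0.08, SE, adjusted P = 0.00198).

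The rarest transcripts showed the widest folds. Cdkn2a gave 15 counts in each cKO library against 97 and 41 counts in Ctrl (0.138 and 0.116 against 0.702 and 0.526 CPM), a log2 fold change of −2.28 ± 0.47 (SE, adjusted P = 0.00732). Cdkn2b gave 35 and 49 counts in cKO against 105 and 69 in Ctrl cells (0.322 and 0.377 against 0.760 and 0.884 CPM), a log2 fold change of −1.23 ± 0.38 (SE, adjusted P = 0.0376). The Cdkn2a call was lost without Ctrl early LPre-B replicate 1 (−2.01, adjusted P = 0.0507) and without cKO early LPre-B replicate 2 (−2.15, adjusted P = 0.0560). The Cdkn2b call was lost without any of the 4 early LPre-B libraries (−1.35 to −1.07, adjusted P = 0.0886 to 0.180), without either cKO sPre-B library (adjusted P = 0.0573 and 0.0582) and with DESeq2 (adjusted P = 0.0572). The count of 4 called genes therefore became 2 without Ctrl early LPre-B replicate 1 and 2 without cKO early LPre-B replicate 2.

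Cdkn2c was at 46.8 and 60.8 CPM in cKO against 88.6 and 84.7 CPM in the early LPre-B controls. This difference missed the threshold (log2 fold change −0.69 ± 0.24, SE, adjusted P = 0.0609), although the groups did not overlap. It passed with DESeq2 (adjusted P = 0.0144), with the likelihood-ratio test (adjusted P = 0.0298), with no filter on low counts (adjusted P = 0.00853) and with the early LPre-B libraries alone (adjusted P = 0.0102). Beside these values, the summed large pre-B markers were lower in the same cKO libraries (3281 to 3444 CPM against 5079 to 5332 CPM). Most of that sum was Mki67, which itself had a log2 fold change of −0.65 ± 0.29 (SE, adjusted P = 0.116). The small pre-B sum (402.1 to 435.8 against 684.5 to 689.9 CPM) and the B lineage sum (1712 to 1737 against 2461 to 2504 CPM) were lower too, and the part of these markers in the lower inhibitor levels was not tested.

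**Figure D2:**
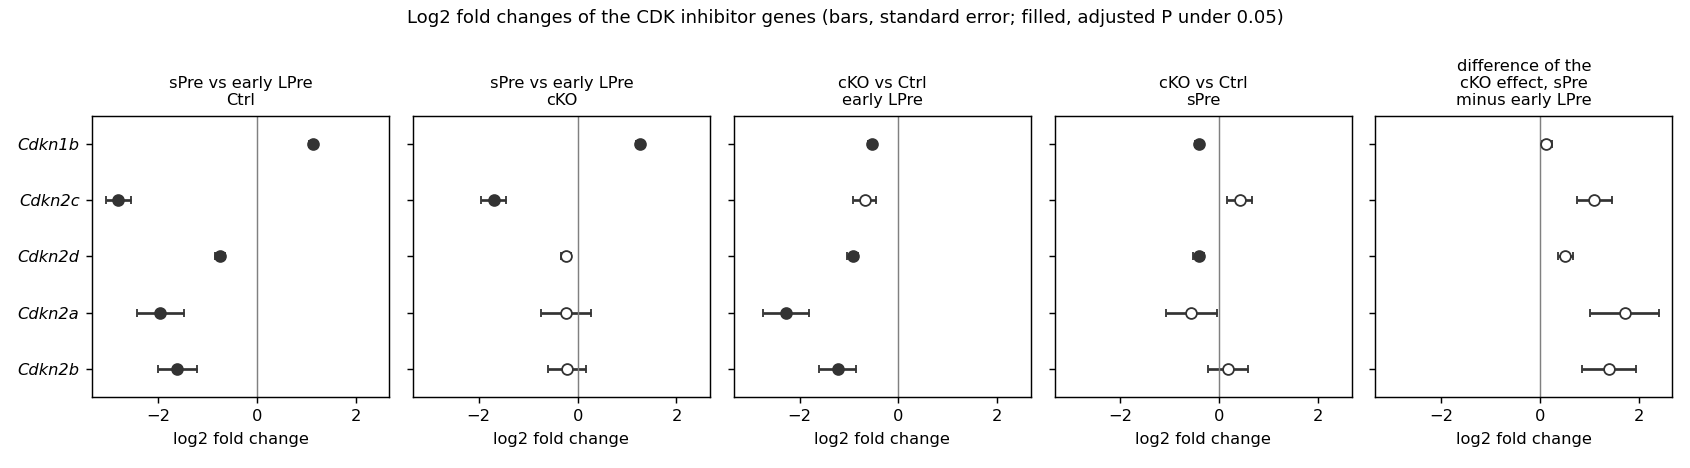
Log2 fold change of each inhibitor gene in the 4 comparisons and in the difference between the cKO effects at the 2 stages (points, edgeR estimates; bars, SE; filled points, adjusted P under 0.05). All 5 estimates are negative for cKO against Ctrl in early LPre-B cells, and no point is filled in the last panel.

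In sPre-B cells the cKO genotype went with lower Cdkn1b and Cdkn2d. Of the 5 genes, 2 passed as lower and 0 as higher, beside 14.9% of all genes called lower and 19.8% called higher, and the median log2 fold change was −0.41 against 0.01. Cdkn1b was at 181 and 178 CPM in cKO against 243 and 235 CPM in Ctrl sPre-B cells, 24.9% lower and without overlap (log2 fold change −0.41 ± 0.08, SE, adjusted P = 0.00585). Cdkn2d was at 35.7 and 40.9 CPM against 55.2 and 47.3 CPM (log2 fold change −0.42 ± 0.11, SE, adjusted P = 0.0163), a call that was lost without cKO sPre-B replicate 1 (−0.32, adjusted P = 0.128) or Ctrl sPre-B replicate 1 (−0.34, adjusted P = 0.0739). The count of 2 called genes became 1 without cKO sPre-B replicate 1.

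Cdkn2c was at 13.5 and 19.6 CPM in cKO against 15.5 and 9.42 CPM in Ctrl sPre-B cells, and the genotypes overlapped (log2 fold change 0.41 ± 0.25, SE, adjusted P = 0.232). Without Ctrl sPre-B replicate 1 it passed as higher (0.78, adjusted P = 0.0473). Cdkn2a (0.119 and 0.0959 against 0.201 and 0.114 CPM) and Cdkn2b (0.293 and 0.312 against 0.201 and 0.340 CPM) overlapped as well, with log2 fold changes of −0.57 ± 0.51 and 0.17 ± 0.40 (SE, adjusted P = 0.430 and 0.780). The small pre-B sum (3364 to 3597 against 4472 to 4937 CPM) and the B lineage sum (3940 to 4387 against 5503 to 6228 CPM) were lower in cKO than in Ctrl sPre-B libraries. The large pre-B sums overlapped (680.7 to 772.7 against 372.5 to 730.7 CPM). The part of these markers in the inhibitor levels was not tested.

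Whether the cKO effect differed between stages was tested as an interaction, sPre-B effect minus early LPre-B effect. None of the 5 genes passed by the edgeR quasi-likelihood test, beside 2.64% of all genes called higher and 1.6% called lower. All 5 differences were positive, and 4 had an unadjusted P under 0.05, a level that 13.3% of all genes reached in that direction. The 4 were Cdkn2d at 0.51 ± 0.15 (SE, adjusted P = 0.0986), Cdkn2c at 1.10 ± 0.35 (SE, adjusted P = 0.116), Cdkn2b at 1.40 ± 0.55 (SE, adjusted P = 0.195) and Cdkn2a at 1.71 ± 0.69 (SE, adjusted P = 0.206). Cdkn1b had a difference of 0.13 ± 0.12 (SE, adjusted P = 0.602). Cdkn2c passed with DESeq2 (1.06, adjusted P = 0.0207), with the likelihood-ratio test (1.10, adjusted P = 0.0392), with no filter on low counts (1.10, adjusted P = 0.0126) and without Ctrl sPre-B replicate 1 (1.42, adjusted P = 0.0354). With the replicate number as a block within each genotype, a fit added once the data had been seen, both Cdkn2c (1.12, adjusted P = 0.0173) and Cdkn2d (0.51, adjusted P = 0.0310) passed. All these comparisons share libraries with one another, so their values are not independent.

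Without both Ctrl replicate 2 libraries, which leaves 1 library in each Ctrl group and assumes that it varies like the cKO libraries, most calls held. Cdkn1b stayed higher in Ctrl sPre-B cells (log2 fold change 1.26, adjusted P = 0.000360) and lower in cKO cells at both stages (−0.46 and −0.48, adjusted P = 0.0157 and 0.0130). Cdkn2d stayed lower in cKO cells at both stages (−0.88 and −0.56, adjusted P = 0.00564 and 0.0194), and Cdkn2c stayed lower in Ctrl sPre-B cells (−2.45, adjusted P = 0.00136). The calls of Cdkn2a between the Ctrl stages (−1.73, adjusted P = 0.0706) and of Cdkn2b between the genotypes in early LPre-B cells (−1.07, adjusted P = 0.127) were lost. The Cdkn2c estimate in sPre-B cells moved from 0.41 to 0.07.

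The order of the groups differed from gene to gene. Cdkn1b ran from Ctrl sPre-B (mean 239 CPM) over cKO sPre-B (180 CPM) and Ctrl early LPre-B (109 CPM) to cKO early LPre-B (74.7 CPM), and no neighbours in that order overlapped. Cdkn2c ran from Ctrl early LPre-B (86.6 CPM) over cKO early LPre-B (53.8 CPM) to cKO and Ctrl sPre-B (16.6 and 12.4 CPM), of which the last pair overlapped. Cdkn2d ran from Ctrl early LPre-B (86.0 CPM) over Ctrl sPre-B (51.3 CPM) and cKO early LPre-B (45.2 CPM) to cKO sPre-B (38.3 CPM), with no overlap between neighbours. For Cdkn2a and Cdkn2b, Ctrl early LPre-B cells stood apart at 0.614 and 0.822 CPM, and the other 3 groups lay at 0.108 to 0.157 CPM and 0.271 to 0.349 CPM.

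Since fragments scale with transcript length, levels of different genes were compared per kilobase of annotated exon. Cdkn2d was the most abundant of the 5 transcripts in Ctrl early LPre-B cells, with 48.8% ± 0.07 (SD, n = 2) of their summed level, ahead of Cdkn2c at 28.8% ± 0.73 and Cdkn1b at 21.3% ± 0.69. In Ctrl sPre-B cells Cdkn1b led with 58.4% ± 2.7 (SD, n = 2), Cdkn2d held 36.1% ± 1.3 and Cdkn2c 5.09% ± 1.4. The lead thus passed from an INK4 to a KIP transcript between stages. The cKO libraries showed the same exchange, with Cdkn1b at 25.1% ± 1.1 in early LPre-B and 56.2% ± 3.5 in sPre-B cells (SD, n = 2). Cdkn2a and Cdkn2b each made up at most 0.571% in any library. The summed level was 112.4 and 111.4 CPM per kilobase in Ctrl early LPre-B, 94.59 and 85.54 in Ctrl sPre-B, 61.18 and 69.8 in cKO early LPre-B and 67.81 and 72.73 in cKO sPre-B cells. The cKO libraries were below the Ctrl libraries at both stages, and the cKO stages lay closer to each other than the Ctrl stages did. Taking the longest transcript as the length moved the Cdkn1b share in Ctrl early LPre-B cells to 19.8% and the Cdkn2d share to 50.1%, without a change in their order.

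**Figure D3:**
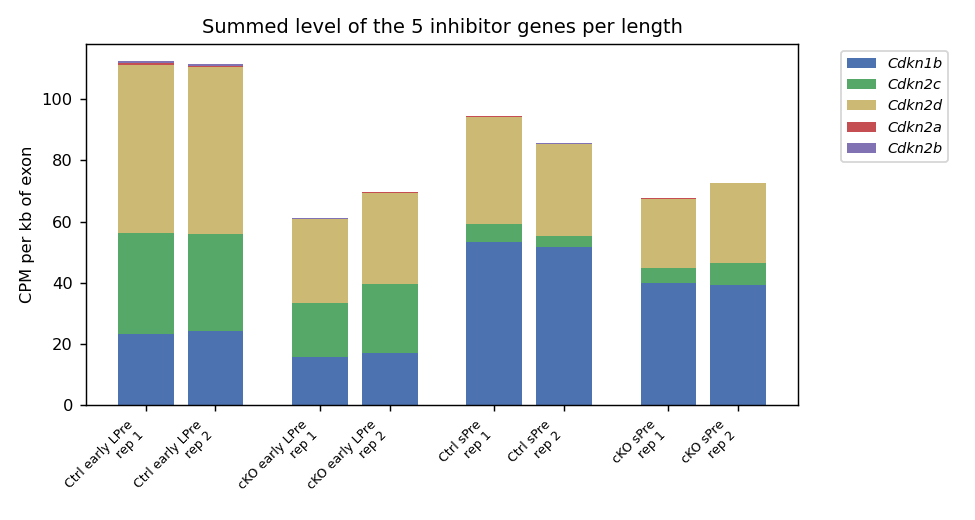
Summed level of the 5 inhibitor genes per kilobase of exon in each of the 8 libraries, as stacked bars from 0 in CPM per kb. Cdkn2d takes the largest part in the early LPre-B bars and Cdkn1b in the sPre-B bars, and the cKO bars (61.18 to 72.73) are shorter than the Ctrl bars (85.54 to 112.4).

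Since the knockout targets the NMD helicase, the annotated transcripts were read for a stop codon more than 50 bases before the last exon junction, the position usually recognised by NMD. None of the 5 genes had such a transcript in the basic annotation, and none had a transcript of the NMD class. Among 20298 genes, 242 (1.19%) had a basic coding transcript with such a stop. That share leaves out transcripts of the NMD class, and the share of all genes with an NMD class transcript was not counted. Most genes lack such a basic coding transcript, so its absence does not set the 5 genes apart. Whether NMD acts on them was not tested. The nearest cases were Cdkn2d-201, with its stop 40 bases before the last junction, the ARF transcript of Cdkn2a at 21 bases, and 2 of 3 Cdkn1b transcripts at 9 bases. The other transcripts ended their reading frames in the last exon, except 1 incomplete Cdkn2d model.

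The annotated genes within 10000 bases were then set beside the inhibitors. Lockd, a long noncoding RNA gene 3567 bases from Cdkn1b, went the other way across the stages. It was at 36.7 and 39.7 CPM in Ctrl early LPre-B and at 5.08 and 4.14 CPM in Ctrl sPre-B cells, so it fell (log2 fold change −3.05 ± 0.15, SE, adjusted P = 1.37e-06) where Cdkn1b rose. In the cKO cells it was at 23.3 and 25.8 CPM in early LPre-B and at 6.88 and 7.49 CPM in sPre-B cells. Lockd was lower in cKO early LPre-B cells (−0.64 ± 0.13, SE, adjusted P = 0.00772), as Cdkn1b was, and higher in cKO sPre-B cells (0.64 ± 0.14, SE, adjusted P = 0.00806), where Cdkn1b was lower. The former call was lost without cKO early LPre-B replicate 1 (−0.57, adjusted P = 0.0721) and the latter without Ctrl sPre-B replicate 2 (0.47, adjusted P = 0.0539). Beside Cdkn2c, the noncoding gene 9630013D21Rik (3288 bases away) fell between the Ctrl stages (−2.97 ± 0.37, SE, adjusted P = 0.000160), as did Faf1 (9871 bases away, −0.96 ± 0.10, SE, adjusted P = 5.04e-05). Kri1, which lies 490 bases from Cdkn2d, was higher in Ctrl sPre-B cells (0.68 ± 0.12, SE, adjusted P = 0.000916) and in cKO early LPre-B cells (0.60 ± 0.12, SE, adjusted P = 0.00505), opposite to Cdkn2d both times. Ap1m2, 3194 bases from Cdkn2d, had a log2 fold change of 0.79 ± 0.39 (SE, adjusted P = 0.107) between the Ctrl stages and was lower in cKO sPre-B cells (−1.53 ± 0.40, SE, adjusted P = 0.0171), as Cdkn2d was. The latter call was lost without Ctrl sPre-B replicate 1 (−1.62, adjusted P = 0.05), without Ctrl sPre-B replicate 2 (−1.52, adjusted P = 0.0598) and without cKO sPre-B replicate 2 (−1.10, adjusted P = 0.0888). These genes were named for their position, with their values known.

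**Figure D4:**
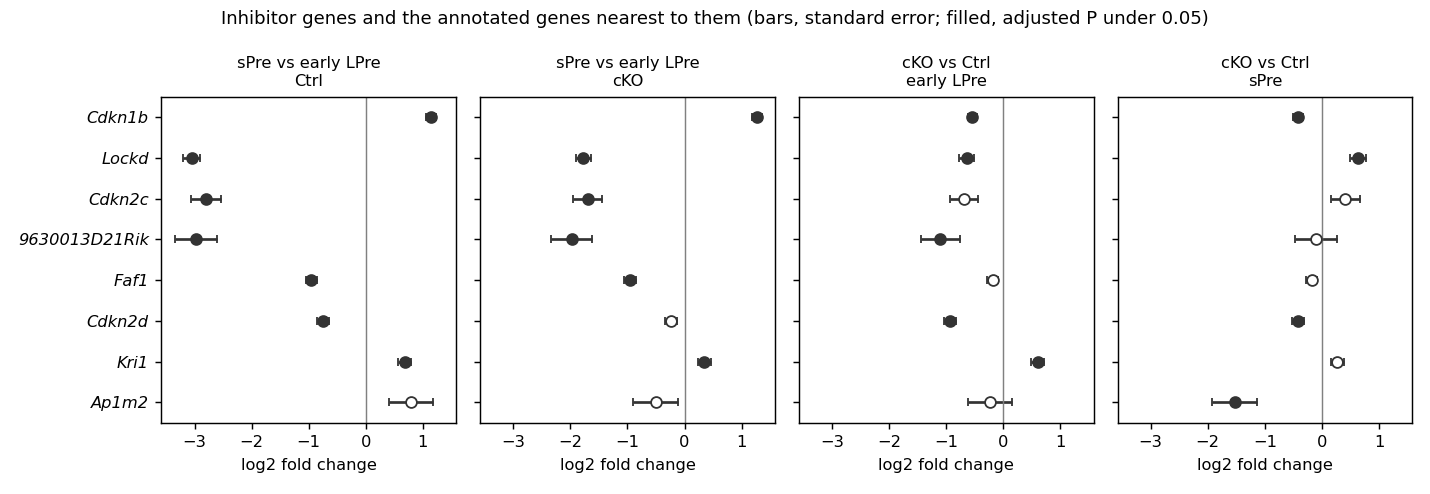
Log2 fold change of Cdkn1b, Cdkn2c and Cdkn2d and of the annotated genes within 10000 bases of each (points, edgeR estimates; bars, SE; filled points, adjusted P under 0.05). Lockd is at −3.05 and Cdkn1b at 1.14 for sPre-B against early LPre-B cells in Ctrl mice.

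Over the 8 libraries, the genes whose log2 CPM followed each inhibitor most closely were named by Pearson's r among 9191 or 9192 genes with a mean of at least 10 CPM. Cdkn1b was nearest to Taok3 (r = 0.998), Txndc11 (0.998) and Lyn (0.998), a Src family kinase of B cell receptor signalling, and Lyn went from 287 CPM in Ctrl early LPre-B to 763 CPM in Ctrl sPre-B cells. Cdkn2c was nearest to Nek2 (0.997), a centrosomal kinase of mitosis, Cenpl (0.996), a centromere protein, and Gpsm2 (0.996), which helps to orient the spindle. Mki67, the standard proliferation marker, showed means of 4694 CPM in Ctrl early LPre-B, 2988 CPM in cKO early LPre-B, 538 CPM in Ctrl sPre-B and 705 CPM in cKO sPre-B cells, the same order of means as Cdkn2c, with overlap between the sPre-B groups for both. Cdkn2d was nearest to Top1 (0.996), Jpt1 (0.984) and Ppm1d (0.984), Cdkn2a to Tpgs2 (0.988), Cpt2 (0.985) and Spata13 (0.984), and Cdkn2b to Fubp1 (0.968), Mnd1 (0.955) and Hnrnpm (0.954). Among the inhibitors, r was 0.953 between Cdkn2a and Cdkn2d and −0.843 between Cdkn1b and Cdkn2c. With 4 groups behind 8 libraries, such values describe the group pattern and carry no test.

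The pathway around the inhibitors was read from lists of 49 genes, of which 48 were tested. Between the Ctrl stages, 14 of the 48 were higher and 26 lower in sPre-B cells. In the cKO mice, 16 were higher and 26 lower. For cKO against Ctrl, 4 were higher and 14 lower in early LPre-B cells, and 14 were higher and 9 lower in sPre-B cells. The shares of all genes to read these and the list counts against are the ones given above for each comparison. The 5 inhibitors are not among them.

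The kinases that the inhibitors act on and their partner cyclins mostly fell with the stage. In that direction 31.1% of all genes were called, beside 29.1% called higher. The list of 5 INK4 targets holds Cdk4 and Cdk6, which INK4 proteins bind, and the D-type cyclins that pair with these kinases. Of these, 4 were lower and 1 higher in Ctrl sPre-B cells, led by Ccnd2 (log2 fold change −3.38 ± 0.25, SE, adjusted P = 8.59e-06), which encodes cyclin D2, and Cdk6 (−3.06 ± 0.11, SE, adjusted P = 6.36e-07). All 5 tested KIP targets were lower, led by Ccne1 (−4.33 ± 0.21, SE, adjusted P = 1.47e-06), the cyclin E1 gene. Their inhibitor Cdkn1b was thus higher while the transcripts of its targets were lower. Among p27 turnover genes 6 of 7 were lower and 1 higher. Skp2 (−3.32 ± 0.21, SE, adjusted P = 4.26e-06) and its cofactor Cks1b (−3.12 ± 0.25, SE, adjusted P = 1.25e-05), which mark p27 for destruction, were lower, and Rnf123, a subunit of the KPC ligase that also acts on p27, was higher (1.07 ± 0.11, SE, adjusted P = 3.89e-05).

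Among transcription factors known to act on KIP or INK4 genes, 6 of 11 were higher and 2 lower in Ctrl sPre-B cells. Myc, a repressor of Cdkn1b and Cdkn2b, was lower (−4.68 ± 0.23, SE, adjusted P = 1.37e-06), and Ikzf3, which encodes Aiolos, was higher (1.76 ± 0.12, SE, adjusted P = 5.70e-06). Of 10 Polycomb regulators of the Cdkn2a-Cdkn2b locus, 3 were higher and 6 lower, with Cbx7 at 2.27 ± 0.20 (SE, adjusted P = 2.27e-05) and Pcgf2 at −2.51 ± 0.53 (SE, adjusted P = 0.00322). In the ARF axis 2 of 5 were higher and 1 lower, the latter being Npm1 (−1.75 ± 0.16, SE, adjusted P = 2.77e-05), whose product binds ARF in the nucleolus. Of the 3 pocket proteins, Rbl1 (p107) was lower (−2.55 ± 0.15, SE, adjusted P = 2.78e-06) and Rbl2 (p130) higher (0.31 ± 0.11, SE, adjusted P = 0.0307). The Rbl2 call was lost without Ctrl early LPre-B replicate 1 (0.31, adjusted P = 0.0755) and without Ctrl sPre-B replicate 1 (0.35, adjusted P = 0.0515), and that of Pcgf2 without both Ctrl replicate 2 libraries (−2.32, adjusted P = 0.0690).

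**Figure D5:**
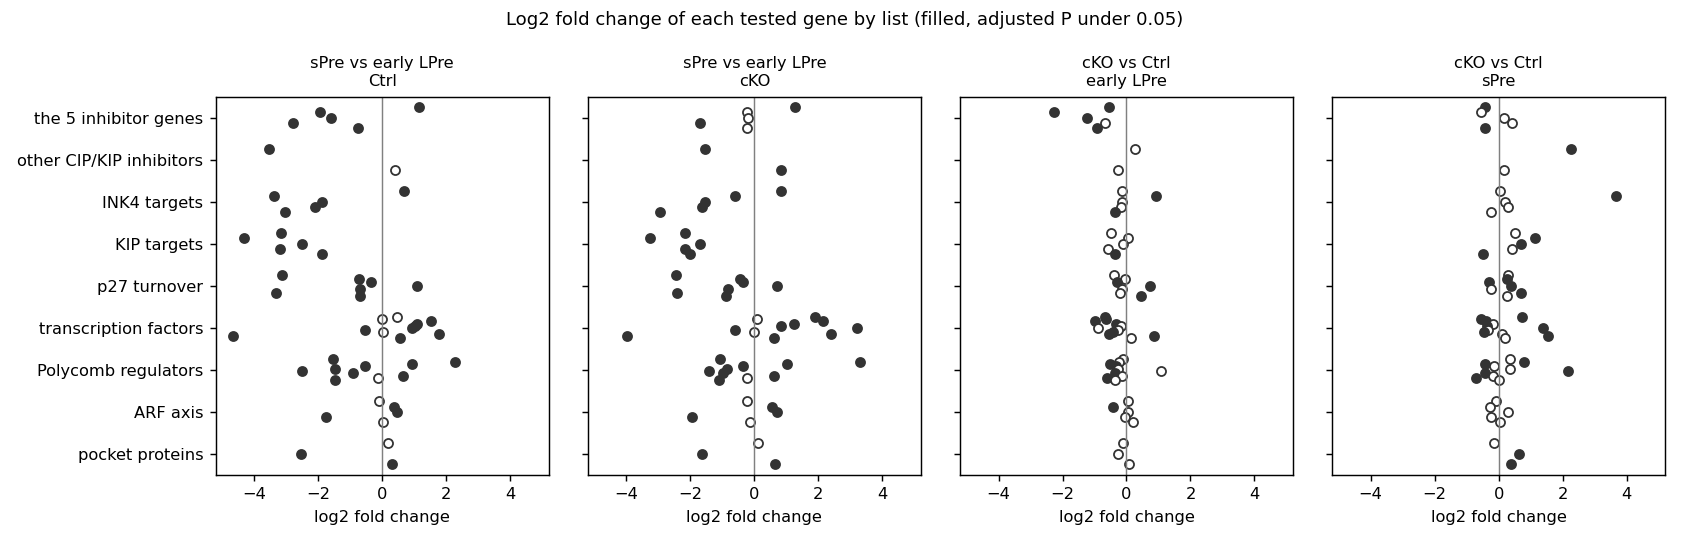
Log2 fold change of each tested gene by list in the 4 comparisons (points, edgeR estimates; filled, adjusted P under 0.05). All 5 tested KIP targets lie left of 0 in the Ctrl stage comparison, and Ccnd2 is the farthest point to the right, at 3.67, for cKO against Ctrl in sPre-B cells.

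Between the genotypes in early LPre-B cells, 16.9% of all genes were called lower and 14.5% higher. Of 5 INK4 targets 1 was higher and 1 lower, namely Ccnd2 (0.91 ± 0.23, SE, adjusted P = 0.0161) and Cdk6 (−0.37 ± 0.10, SE, adjusted P = 0.0246). Of 5 KIP targets only Cdk2 passed, as lower (−0.36 ± 0.08, SE, adjusted P = 0.0119). Of the 11 transcription factors 6 were lower and 1 higher. Foxo1, an activator of Cdkn1b in lymphocytes, was lower (−0.998 ± 0.099, SE, adjusted P = 0.000230), and Myc was higher (0.86 ± 0.19, SE, adjusted P = 0.00924). Polycomb regulators were lower in 4 of 10, with Rnf2 at −0.60 ± 0.13 (SE, adjusted P = 0.00772), and 0 passed as higher, beside the lower Cdkn2a and Cdkn2b. The p27 ligase gene Rnf123 was higher (0.73 ± 0.10, SE, adjusted P = 0.00136), 1 of 2 higher and 1 lower among the 7 turnover genes, and in the ARF axis Mdm2 alone passed (−0.42 ± 0.11, SE, adjusted P = 0.0216). No pocket protein passed. Without cKO early LPre-B replicate 1 the calls of Ccnd2 (0.72, adjusted P = 0.100), Cdk6 (−0.26, adjusted P = 0.171), Cdk2 (−0.30, adjusted P = 0.0935), Myc (0.66, adjusted P = 0.0766), Rnf2 (−0.47, adjusted P = 0.0607) and Mdm2 (−0.30, adjusted P = 0.156) were lost. Those of Ccnd2, Cdk6 and Cdk2 were lost without Ctrl early LPre-B replicate 1 too (adjusted P = 0.0521, 0.0909 and 0.0650), and those of Ccnd2, Cdk6, Myc and Mdm2 without Ctrl early LPre-B replicate 2 (adjusted P = 0.0885, 0.102, 0.0574 and 0.152). Foxo1 and Rnf123 kept theirs without any single library.

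In sPre-B cells the cKO genotype went with higher Ccnd2 (3.67 ± 0.25, SE, adjusted P = 4.07e-05), the only call among 5 INK4 targets, where 19.8% of all genes were called higher and 14.9% lower. Of 5 KIP targets 2 were higher and 1 lower, with Ccne1 at 1.14 ± 0.20 (SE, adjusted P = 0.00280). Of 7 turnover genes 3 were higher and 1 lower, with Skp2 at 0.71 ± 0.20 (SE, adjusted P = 0.0229). The ligases of this list act on the p27 protein, which these libraries do not measure, and not on the Cdkn1b transcript. Of 11 transcription factors 3 were higher and 4 lower, with Myc at 1.55 ± 0.21 (SE, adjusted P = 0.000852), and of 10 Polycomb regulators 2 were higher and 3 lower, with Pcgf2 at 2.16 ± 0.53 (SE, adjusted P = 0.0136). Rbl1 and Rbl2 were higher among 3 pocket proteins (0.65 ± 0.14 and 0.39 ± 0.11, SE, adjusted P = 0.00757 and 0.0223), and 0 of 5 genes of the ARF axis passed by edgeR. The Skp2 call was lost without cKO sPre-B replicate 2 (0.61, adjusted P = 0.102) and without Ctrl sPre-B replicate 2 (0.37, adjusted P = 0.0826). That of Pcgf2 was lost without cKO sPre-B replicate 1 or either Ctrl sPre-B library (1.503 to 2.328, adjusted P = 0.0551 to 0.0837), and that of Rbl2 without cKO sPre-B replicate 2 or either Ctrl sPre-B library (0.305 to 0.376, adjusted P = 0.0773 to 0.124).

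Of the other CIP/KIP genes, Cdkn1a (p21) had group means of 47.1, 56.8, 4.02 and 19.3 CPM in Ctrl early LPre-B, cKO early LPre-B, Ctrl sPre-B and cKO sPre-B cells, and it was higher in cKO sPre-B cells (log2 fold change 2.26 ± 0.15, SE, adjusted P = 4.07e-05) where Cdkn1b and Cdkn2d were lower. It was lower in sPre-B cells of both genotypes, as Cdkn2c was (log2 fold change −3.55 ± 0.16 in Ctrl and −1.56 ± 0.15 in cKO, SE, adjusted P = 1.23e-06 and 3.10e-05). Cdkn1c (p57) lay at 1.97 to 3.48 CPM in group means and was higher in cKO sPre-B than in cKO early LPre-B cells, as Cdkn1b was (0.82 ± 0.26, SE, adjusted P = 0.0219). That call was lost without cKO early LPre-B replicate 2 (0.63, adjusted P = 0.137) and without cKO sPre-B replicate 2 (0.68, adjusted P = 0.110).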

How the data were processed

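RNA-seq was done on 8 libraries, 2 in each of 4 groups. Per the study's methods, rRNA-depleted paired-end reads were trimmed with Trim Galore, aligned to mm10 with HISAT2 as unstranded and counted per gene with featureCounts. The authors deposited raw counts by Entrez ID. Tool versions and the strand setting of the counting are not given in the sources used here.

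edgeR 4.0.16 (R 4.3.3) fitted 1 quasi-likelihood model with a mean per group to all 8 libraries, with TMM scaling (factors 0.862 to 1.09) and filterByExpr (10 counts, 2 libraries), and Benjamini-Hochberg adjustment over 17700 genes at 0.05. SE is the log2 fold change divided by the root of the F statistic. DESeq2 1.42.0 and other alternatives are given in the closing section. Places and lengths came from GENCODE on GRCm38, and promoters from RefSeq. On counts simulated for the Ctrl stage comparison, with 200 of 17700 genes changed by a log2 fold change of 2, 190 of the 198 tested were recovered and 3 unchanged genes were called.

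The 5 genes, the lists and the tests were chosen with earlier results of these data known. Named list genes are the called genes of largest change, at most 2 a list and comparison, plus Cdkn1a and Cdkn1c. Genes nearest in pattern are the 3 with the highest Pearson's r.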

Additional observations from a re-analysis of the deposited data

Results flagged for a closer look

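The effect of the cKO genotype differed between the stages for 7 of the pathway and neighbouring genes and for 6 of the cell type markers, by the interaction term of the edgeR quasi-likelihood fit (sPre-B effect minus early LPre-B effect, SE, Benjamini-Hochberg adjusted P). Of the 48 tested pathway genes, 6 passed as higher and 0 as lower, beside 2.64% of all tested genes called higher and 1.6% called lower. The genes below are named because they passed. None of them is among the 5 inhibitors. Cdkn1a, the p21 gene, had a difference of 1.99 ± 0.21 (adjusted P = 0.00384), with effects of 0.27 in early LPre-B and 2.26 in sPre-B cells. Ccnd2 had a difference of 2.76 ± 0.33 (adjusted P = 0.00612), with effects of 0.91 and 3.67. Lockd, the noncoding neighbour of Cdkn1b, had a difference of 1.28 ± 0.19 (adjusted P = 0.0139), and its effects of −0.64 and 0.64 had opposite signs. That call was lost without Ctrl early LPre-B replicate 2 (1.14, adjusted P = 0.0553), without cKO early LPre-B replicate 1 (1.20, adjusted P = 0.0699) and without both Ctrl replicate 2 libraries (0.995, adjusted P = 0.0948). Id1, Bcl6 and Rbl1 had differences of 2.28 ± 0.48 (adjusted P = 0.0364), 1.43 ± 0.28 (adjusted P = 0.0301) and 0.91 ± 0.20 (adjusted P = 0.0403). Foxo1 had a difference of 0.62 ± 0.14 (adjusted P = 0.0468), a call lost without any single library (0.52 to 0.66, adjusted P = 0.0821 to 0.184) and with median-ratio size factors (0.58, adjusted P = 0.0554). The calls of Id1, Bcl6 and Rbl1 were lost when single libraries were left out, for 7 of the 8 libraries each, and without both Ctrl replicate 2 libraries those of Ccnd2 (2.51, adjusted P = 0.0649), Foxo1 (0.50, adjusted P = 0.188), Id1 (1.89, adjusted P = 0.217), Bcl6 (1.24, adjusted P = 0.0610) and Rbl1 (0.59, adjusted P = 0.195) were lost.

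Among the markers, Fcer2a had a difference of 3.24 ± 0.60 (adjusted P = 0.0269), Rag1 of 1.68 ± 0.33 (adjusted P = 0.0315), Rag2 of 0.89 ± 0.18 (adjusted P = 0.0346) and Vpreb1 of 1.41 ± 0.29 (adjusted P = 0.0346). Rag1 and Rag2, the recombinase genes on the small pre-B list, had effects of −2.74 and −1.04 in early LPre-B and of −1.06 and −0.15 in sPre-B cells. Vpreb1, a surrogate light chain gene, had effects of −0.53 and 0.88. Klrb1c, on the T and NK cell list, had a difference of 2.43 ± 0.54 (adjusted P = 0.0432) at 0.241 to 3.30 CPM, and Itgam one of 0.90 ± 0.20 (adjusted P = 0.0472). All 6 marker calls were lost when single libraries were left out, for 5 of the 8 libraries with Fcer2a, 6 with Rag1, Rag2 and Vpreb1, and 7 with Klrb1c and Itgam. Without both Ctrl replicate 2 libraries they were lost for all but Vpreb1 (adjusted P = 0.171 to 0.234 for the other 5), and with median-ratio size factors that of Itgam was lost (0.86, adjusted P = 0.0524).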

How the results depend on the processing

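Of the 5 inhibitors, Cdkn1b kept its direction and its call in both stage comparisons and in both genotype comparisons under every alternative run, Cdkn2c did so in both stage comparisons, and Cdkn2d between the Ctrl stages and between the genotypes in early LPre-B cells. With the edgeR likelihood-ratio test, the Cdkn2c log2 fold change for cKO against Ctrl in early LPre-B cells (−0.69) and its difference between stages (1.10) passed, as they did with DESeq2 (−0.68 and 1.06) and with no filter on low counts (−0.68 and 1.10), so that 1 of the 5 passed the interaction in each. With DESeq2, Cdkn2b in early LPre-B cells was −1.22 and no longer passed. With only the libraries compared, Cdkn2d between the cKO stages (−0.28) and Cdkn2c in early LPre-B cells (−0.62) passed. Without both Ctrl replicate 2 libraries, Cdkn2a between the Ctrl stages (−1.73) and Cdkn2b in early LPre-B cells (−1.07) no longer passed, and the difference between stages of Cdkn1b turned to −0.013.

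Leaving out each library in turn, with the lone library of its group assumed to vary like the other groups, gave log2 fold changes between the Ctrl stages of −2.36 to −1.55 for Cdkn2a and −1.96 to −1.20 for Cdkn2b. For cKO against Ctrl in early LPre-B cells they were −2.41 to −2.01 for Cdkn2a, −1.35 to −1.07 for Cdkn2b and −0.89 to −0.51 for Cdkn2c, with 2 to 5 of the 5 genes called. In sPre-B cells they were −0.21 to 0.55 for Cdkn2b, 0.066 to 0.778 for Cdkn2c and −0.56 to −0.32 for Cdkn2d, with 1 to 2 called. The difference between stages was 0.71 to 1.42 for Cdkn2c, with 0 to 1 called. Without single libraries, Cdkn2b for cKO against Ctrl in sPre-B cells turned to −0.21 without Ctrl sPre-B replicate 1, Cdkn1c in early LPre-B cells (range −0.491 to 0.074) to 0.074 without Ctrl early LPre-B replicate 1, Ap1m2 in early LPre-B cells (range −0.614 to 0.068) to 0.068 without cKO early LPre-B replicate 2, 9630013D21Rik in sPre-B cells to 0.23 without cKO sPre-B replicate 1, and Prdm1 in sPre-B cells to 0.005 without Ctrl sPre-B replicate 1. The cause was not tested.

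Same-numbered libraries deviated together with correlations of 0.051 to 0.395 over 6 pairs of groups, and no source used here says what a number marks. The highest values were those within a genotype (0.395 in Ctrl and 0.254 in cKO), and 2 of the 6 were under 0.1, so the number was not used as a block in the reported values. With the replicate number as a block, Cdkn1b was 1.14 and 1.27 between the Ctrl and cKO stages and −0.54 and −0.41 between genotypes, Cdkn2c −2.79, −1.70, −0.69 and 0.40, Cdkn2d −0.75, −0.24, −0.93 and −0.42, Cdkn2a −1.97, −0.24, −2.26 and −0.52, and Cdkn2b −1.63, −0.21, −1.24 and 0.19, and the differences between stages were 0.13, 1.09, 0.51, 1.73 and 1.42 in that order of genes. No call changed. A block within genotype, added after the data were seen, gave calls to Cdkn2d between the cKO stages (−0.24) and to the differences between stages of Cdkn2c (1.12) and Cdkn2d (0.51), 2 of the 5.

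Over all genes, the interaction counts depended most on the setting. They went from 467 higher and 283 lower to 1004 and 504 with the likelihood-ratio test, 1045 and 725 with DESeq2, 1078 and 497 with no filter, 1360 and 782 with the block within genotype and 59 and 33 without both Ctrl replicate 2 libraries. Calls between genotypes fell from 2564 higher and 2983 lower in early LPre-B cells to 1634 and 1289 without cKO early LPre-B replicate 1. In sPre-B cells they fell from 3505 and 2629 to 2258 and 1366 without cKO sPre-B replicate 1. For the other named genes, 102 log2 fold changes were refitted under the alternatives, 1675 refits in all. In 163 of these refits, from 39 of the 102, a call was lost, and in 6, from 4 of the 102, 1 was gained. Cdkn2a and Cdkn2b rest on 8 to 105 counts a library.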
